A study of Drosophila melanogaster with 6 samples.

Results

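The genes of the cytosolic ribosomal proteins were followed in RNA-seq of PPL1-γ1pedc dopamine neurons (DANs) from Drosophila larvae. Every gene was taken whose symbol begins with RpL or RpS, or with RpLP or RpSP, followed by a digit, which gave 92 of the 17737 genes in the deposited tables. Of these, 54 carried large subunit names and 38 carried small subunit names. The 92 were further divided into 78 main genes, 47 of the large and 31 of the small subunit, and 14 paralogs or genes named "like", each paired with the main gene it resembles.

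The ribosome reads mRNA on its small subunit and joins amino acids on its large subunit, and each subunit is built in the nucleolus from ribosomal RNA (rRNA) and a set of small, basic proteins. Most of these proteins come from a single gene in Drosophila, and losing one copy of many of those genes gives the Minute phenotype of slow development and thin bristles. A few genes have a second copy, and several of those copies are known chiefly from the ovary or testis. The transcripts are short and are usually among the most abundant in a cell that is making protein.

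The study asked which transcripts change in these neurons when Stromalin, a cohesin subunit encoded by SA, is knocked down while synaptic vesicle numbers are being set. Both genotypes carried ΔTH-D'-GAL4 driving UAS-dicer2 and the membrane marker UAS-mCD8:GFP, and Stromalin knockdown (KD) larvae also carried a UAS-Stromalin RNAi transgene of the KK collection. The driver is restricted to the γ1pedc DANs at this stage, and GFP+ cell bodies were picked by hand from dissociated brains of larvae in the third instar, 120 h after egg laying. Each of the 3 control and 3 Stromalin KD libraries was a pool of 25 neurons from many brains, collected on a day of its own with the genotypes alternating.

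The libraries held 7790921 to 9625056 counts in genes, of which rRNA genes took 16.6% to 30.3%. A gene was called found in a library at 10 counts or more, and 2298 to 4004 genes were found per library. At these depths a count of 0 allows up to 3 counts, or 0.312 to 0.385 CPM, which is counts scaled by library size, a limit that covers counting error only since amplified reads are not independent molecules. SA, the knocked-down gene, was seen at 1372 counts in control 3 and at 3 counts in Stromalin KD 1, and was at 0 in the other libraries, so that these data hold little on its change. All 4 dopamine neuron markers were found in every library, among them the vesicular transporter Vmat, the dopamine transporter DAT and ple, which encodes tyrosine hydroxylase. Of 12 pan-neuronal markers, 11 were found in all 6 libraries. Markers of other cells were uneven: 8 of 14 fat body and blood genes were found in control 2 and none in control 1 or control 3, with summed levels of 0 to 1097 normalized CPM (CPM after TMM scaling in edgeR) in the control pools and 0.347 to 728 in the knockdown pools. Summed glial markers ran from 0.426 to 415 normalized CPM in the control pools and from 0 to 187 in the knockdown pools. The defining genes repo and alrm of glia, dpn and ase of neuroblasts, and Hml and NimC1 of blood cells were at 0 in all 6 libraries. Summed neuroblast markers were at 0 to 41.6 normalized CPM in the control pools and 4.28 to 181 in the knockdown pools. Summed markers of other transmitter types were at 0 to 81.8 normalized CPM in the control pools and 49.0 to 295 in the knockdown pools. Among these, VGAT, the vesicular GABA transporter, held 112, 0 and 0 counts against 1762, 500 and 1737. Gad1, ChAT, Trh and Tdc2 of the same list were at 0 in all 6 libraries. Tbh had counts in control 3 alone, SerT in Stromalin KD 1 alone, and VAChT and VGlut in Stromalin KD 3 alone.

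Ribosomal protein transcripts were patchy from pool to pool. Of the 92 genes, 82 had a count in at least 1 library and 10 had none in any, and all 10 were paralogs or like genes. Of the 78 main genes, 20 were found in all 6 libraries, 27 in 5, 15 in 4, 10 in 3 and 5 in 2. The remaining main gene, RpL22, was found in none, with 4 counts in control 2 and 0 elsewhere. Being found in all 6 libraries applied to 25.6% of main genes and to 14.5% of the 6922 genes of the whole table that had any count.

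The same gene could be among the strongest in one pool and missing from the next. Among the 468 values of main genes, 74 were 0, a further 39 lay between 1 and 9 counts, and 137 reached 1000 counts or more. At least 1 library was at 0 for 45 main genes, and 33 of these also had a library with 1000 counts or more. RpS3A, a protein of the small subunit, held 1821, 4496 and 21 counts in the control pools and 7579, 2458 and 0 in the knockdown pools, where its highest and lowest libraries were both Stromalin KD pools. RpS13 held 1527, 1517 and 0 counts in the control pools and 1237, 3852 and 75 in the knockdown pools. RpS10b was at 34, 2241 and 0 counts in the control pools and at 2206, 1861 and 0 in the knockdown pools, with an empty library in each genotype. For the median main gene, a single library held 50.0% of all its counts, with a range of 25.2% to 100%, against 56.7% for the median of all tested genes.

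**Figure D1:**
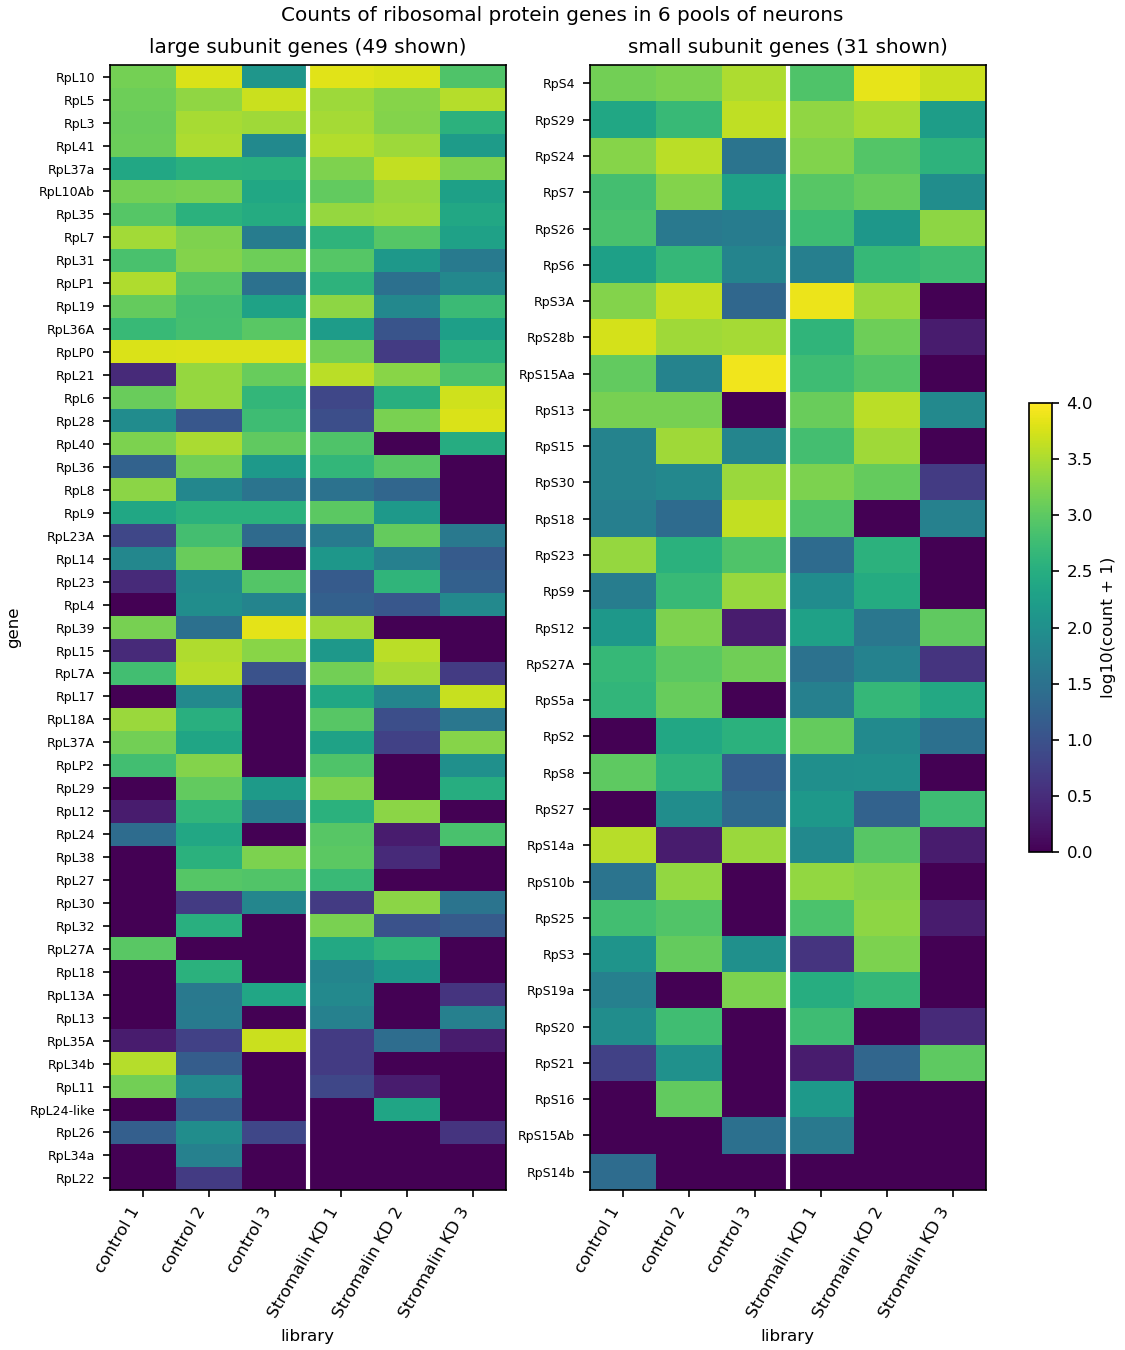
Counts of 80 of the 82 ribosomal protein genes with any count, as log10(count + 1) on the color scale, with genes of the large (left) and small (right) subunit as rows and the 6 libraries as columns. The white line parts control from Stromalin KD, and rows are ordered by the number of libraries with 10 counts or more, so that genes found everywhere are at the top and dark cells, at or near 0, spread over both genotypes below them.

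How many main genes were found differed as much within a genotype as between genotypes. In control 1, 2 and 3 the numbers were 57, 72 and 55 of 78, and in Stromalin KD 1, 2 and 3 they were 68, 58 and 45. The means were 61.3 ± 9.29 (SD, n = 3) in the control pools and 57.0 ± 11.5 (SD, n = 3) in the knockdown pools, and the groups overlapped. The difference in these means, Stromalin KD minus control, was -4.33 genes, and it was 1.00 without control 2 and 1.67 without Stromalin KD 3. Control 2 and Stromalin KD 1 held the most main genes and were also the libraries in which the most genes of any kind were found, 4004 and 3732. Control 2 was also the library with the most fat body and blood genes. The part of these differences in the counts of ribosomal protein genes was not tested.

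Relative to their number, small subunit main genes were found more often than large subunit main genes in every library but Stromalin KD 3, a difference that was not tested. Of the 47 large subunit main genes, 30, 43 and 32 were found in the control pools and 39, 30 and 30 in the knockdown pools. Of the 31 small subunit main genes, 27, 29 and 23 were found in the control pools and 29, 28 and 15 in the knockdown pools, with the lowest number in Stromalin KD 3.

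Levels per length were compared in TPM, counts scaled by transcript length and library. The mean TPM over 6 libraries had a median of 263 over large subunit main genes and 262 over small subunit main genes, and 72 of the 78 main genes lay above 59.0 TPM, the median of all tested genes. RpL39 and RpL41, which encode the smallest ribosomal proteins, had the highest means, at 2128 ± 3208 and 1781 ± 1476 TPM (SD, n = 6 libraries). For RpL39 this mean rested on few pools, since its counts were 1494, 29 and 6796 in the control pools and 2693, 0 and 0 in the knockdown pools. RpL41 was found in every library, between 79 and 3517 counts. Next in level were RpL10, which joins the large subunit late in its assembly, at 892 ± 748 TPM, and RpLP0, the base of the large subunit stalk, at 825 ± 762 TPM. RpL21, RpS28b, RpS4, RpS24 and RpS15Aa followed at mean levels between 747 and 650 TPM, each with an SD of at least 549 TPM. For each of these 9 genes the SD over libraries was larger than the gap to the next gene in this order.

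The 20 genes found everywhere, 12 of the large and 8 of the small subunit, varied about as widely as other genes found everywhere. Their coefficient of variation (CV) in normalized CPM over 6 libraries had a median of 0.846, within the quartiles of 0.558 and 1.02 over the 1001 genes found in all 6 libraries. The steadiest was RpL3, a large protein near the peptidyl transferase center, which held 1212, 2999 and 2664 counts in the control pools and 2845, 1785 and 376 in the knockdown pools, with a CV of 0.517. RpL5, which binds the small rRNA of the large subunit, had a CV of 0.541 with 1314, 2139 and 4707 counts in the control pools and 2623, 1904 and 3575 in the knockdown pools. RpL10Ab, RpS4 and RpS7 had CVs of 0.670, 0.684 and 0.700. Among the 5 most variable, RpLP1, an acidic protein of the stalk, had a CV of 1.77, and RpS26, RpL7 and RpS29 lay between 1.29 and 1.04.

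The rank order of the main genes by level was only loosely shared between pools. Spearman's rho over the 78 main genes ran from 0.086 to 0.319 in the 6 pairs of libraries of the same genotype and from 0.057 to 0.444 in the 9 pairs of different genotype. Over all tested genes it ran from 0.375 to 0.478 and from 0.369 to 0.523. These are descriptions across genes, which share their library and its depth, and the largest value over main genes joined control 2 and Stromalin KD 1, the libraries in which the most genes were found.

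The ribosomal protein share of all counts outside rRNA genes was lower in each Stromalin KD pool than in each control pool. It was 1.26%, 1.10% and 1.12% in control, with a mean of 1.16% ± 0.087 (SD, n = 3), and 1.03%, 0.962% and 0.602% in Stromalin KD, with a mean of 0.864% ± 0.229 (SD, n = 3). The log2 ratio of the means was -0.42, and -0.22 without Stromalin KD 3, the library with the lowest share. In summed TPM the groups overlapped, at 25498, 32335 and 34479 in the control pools and 26017, 24364 and 13810 in the knockdown pools. No test was made of this share, because it is a sum over chosen genes. Single genes weighed on it. Of 88220 ribosomal protein counts in control 2, RpLP0 held 6191 and RpS28b 2732. Of 75233 in control 3 they held 6052 and 2935, and of 70340 in Stromalin KD 1 they held 1414 and 414. With these counts taken out, the share of Stromalin KD 1 lies above those of control 2 and control 3. The groups then overlap, so that the order of the pools cannot be read as a change across the whole set. Summed markers of other transmitter types averaged 32.6 normalized CPM in the control pools and 205 in the knockdown pools (VGAT alone 5.30 and 154). Summed neuroblast markers averaged 27.2 and 94.2. In both sums the groups overlapped, and their part in the share was not tested. A share of counts in pools of picked cells does not tell fewer of these transcripts per neuron from a different mix of cells.

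Summed TPM of large over small subunit genes did not separate the genotypes. The ratio was 1.59, 1.62 and 1.26 in control (1.49 ± 0.201, SD, n = 3) and 2.43, 1.34 and 1.77 in Stromalin KD (1.85 ± 0.548, SD, n = 3), with overlapping groups. The log2 ratio of the means was 0.31, and 0.06 without Stromalin KD 1, the library with the highest ratio. Taken from the median TPM of main genes in place of the sum it was 1.74, again with overlapping groups. That value was set by Stromalin KD 3, where the medians were 19.1 TPM in the large and 2.30 TPM in the small subunit.

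**Figure D2:**
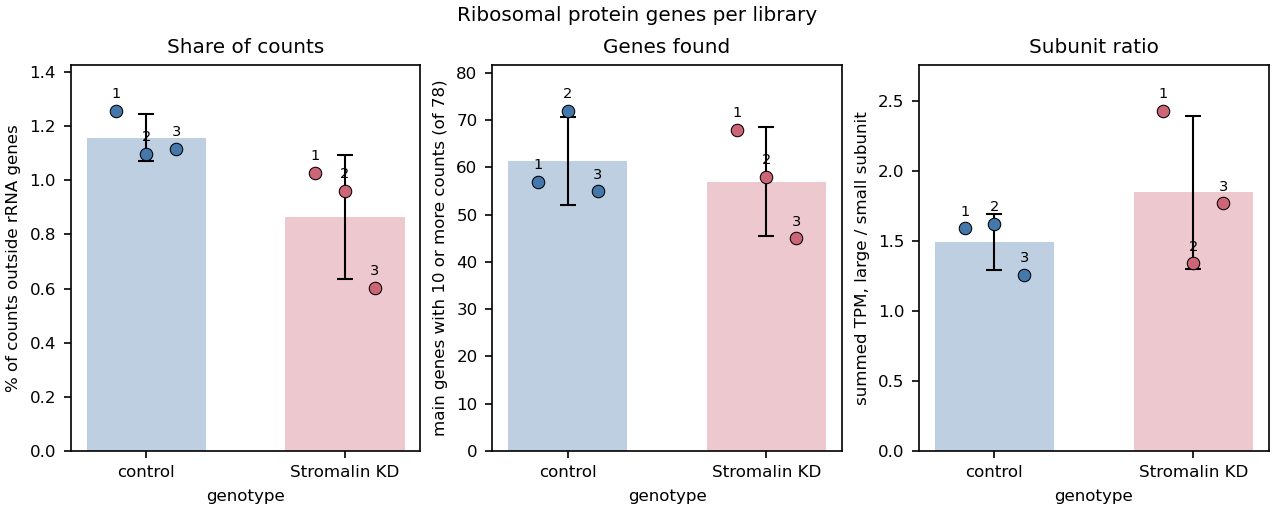
Ribosomal protein genes in each library, as the percent of counts outside rRNA genes (left), the number of the 78 main genes with 10 counts or more (middle) and summed TPM of large over small subunit genes (right). Points are libraries with their replicate number, bars are means of 3 and error bars are SDs. The shares of control (1.10% to 1.26%) lie above those of Stromalin KD (0.602% to 1.03%), while the other panels overlap. Without RpLP0 and RpS28b the shares overlap as well.

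Gene by gene, no ribosomal protein gene passed the test between genotypes. Genes with at least 10 counts in 2 libraries were tested on raw counts with edgeR's quasi-likelihood test and Benjamini-Hochberg adjustment over all 4093 such genes, and 79 of the 92 entered, 77 main genes and 2 paralogs. The other 13 were the 10 genes without a count together with RpL22, RpL34a and RpS14b. At an adjusted p under 0.05, 0 of 79 were called, the smallest adjusted p being 0.809, against 0.0489% of all tested genes (2 of 4093). At an unadjusted p under 0.05 there were 2 of 79, or 2.53%, against 3.23% of all tested genes. Both were lower in Stromalin KD, as were 1.59% of all tested genes at that limit. DESeq2 gave an adjusted p to 64 of the 79 and called 0, the smallest being 0.0665, against 5.93% of all genes with an adjusted p (178 of 3000). At an unadjusted p under 0.05 in DESeq2 there were 2 of the 64, against 14.1% of all genes (424 of 3000). A limma fit on log2(TPM + 1) in place of counts called 1 of the 79, RpLP0, against 0.0977% of all tested genes (4 of 4093).

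The fitted log2 fold changes, Stromalin KD over control, had a median of -0.23 over the 79 genes, with quartiles of -1.91 and 0.80, and were negative in 47 and positive in 32. Over all tested genes the median was 0.07, with quartiles of -1.47 and 1.77. The median was -0.49 over 47 large subunit genes, of which 28 were negative, and -0.22 over 32 small subunit genes, of which 19 were negative. These medians moved with single libraries: without control 2 the median over the ribosomal protein genes was 0.08 and that over all tested genes 0.49, and without Stromalin KD 1 they were -0.93 and -0.24. The median SE of a gene's log2 fold change was 3.62 over the 79 genes and 3.79 over all tested genes, beside a median absolute log2 fold change of 1.48 over the 79 genes.

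**Figure D3:**
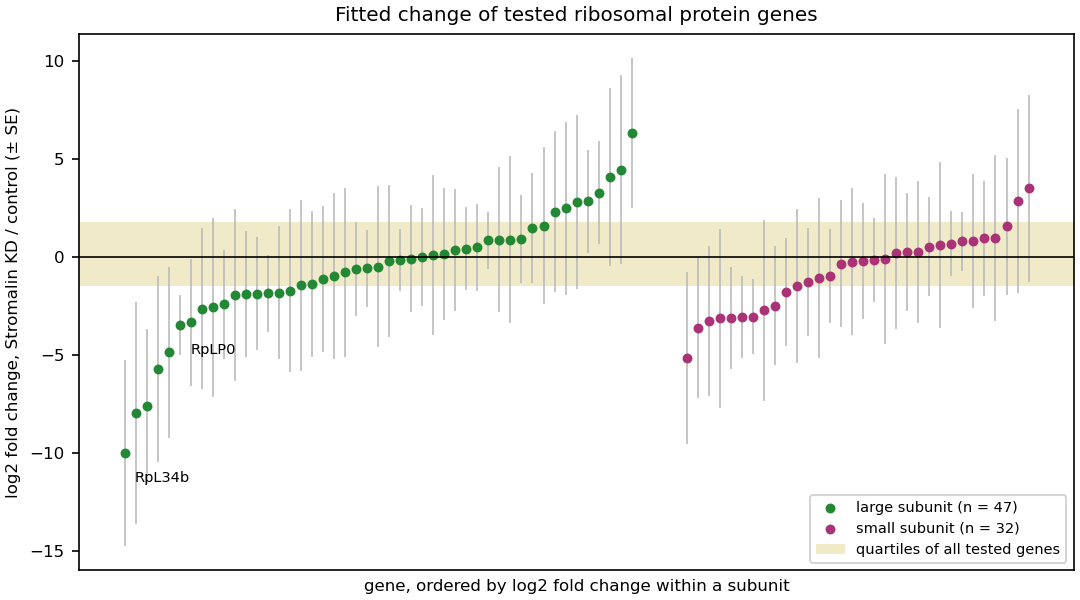
Fitted log2 fold change in edgeR of the 79 tested ribosomal protein genes, Stromalin KD over control, ordered within the large (green) and small (purple) subunit. Gray bars are ± SE, derived from the F statistic of the test. The shaded band spans the quartiles of all 4093 tested genes, -1.47 to 1.77, and RpLP0 and RpL34b are the genes with an unadjusted p under 0.05.

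RpLP0 forms the base of the stalk of the large subunit, where translation factors bind. In the BDGP6 assembly it spans positions 22075867 to 22077487 of the plus strand of chromosome 3L, with 1328 exon bases. Its counts were 6040, 6191 and 6052 in the control pools and 1414, 4 and 333 in the knockdown pools. The control pools were close to each other and all lay above the Stromalin KD pools, which differed widely among themselves. In normalized CPM the means were 755 ± 133 in the control pools and 68.1 ± 85.0 in the knockdown pools (SD, n = 3 each), and the log2 fold change was -3.47 ± 1.53 (SE), with an unadjusted p of 0.0230 and an adjusted p of 0.809 in edgeR. The exact permutation test gave a p of 0.1, the smallest that 3 against 3 allows. In the limma fits on log2(TPM + 1) and log2(TPM + 0.1) the adjusted p was 0.0114 and 0.0117, and over all 16 alternatives in which it was fitted the log2 fold change stayed negative, between -5.60 and -2.85, with adjusted p from 0.0114 to 1.00.

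The acidic proteins that complete the stalk were less even in control. RpLP1 held 3365, 925 and 30 counts in the control pools and 388, 29 and 72 in the knockdown pools (log2 fold change -3.34 ± 3.26, SE). RpLP2 held 617, 1821 and 0 counts in the control pools and 784, 0 and 101 in the knockdown pools (-1.37 ± 3.72, SE). In both genes the groups overlapped, and neither passed the test.

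The ribosomal proteins RpS27A and RpL40 are made as fusions to ubiquitin, which is cut off and joins the cell's ubiquitin pool. RpS27A, on 2L at positions 10408352 to 10410456, plus strand, held 478, 995 and 1368 counts in the control pools and 31, 58 and 3 in the knockdown pools. All Stromalin KD pools were below all control pools, at 3.21 ± 2.68 against 116 ± 58.9 normalized CPM (SD, n = 3 each), with a log2 fold change of -5.16 ± 4.41 (SE) and an adjusted p of 1.00 in edgeR. It had the smallest adjusted p of the ribosomal protein genes in DESeq2, 0.0665. RpL40, on 2L at positions 4227699 to 4228561, plus strand, held 1640, 3148 and 1037 counts in the control pools and 782, 0 and 304 in the knockdown pools. Its groups did not overlap either, and its log2 fold change was -2.41 ± 2.78 (SE), with an adjusted p of 1.00 in edgeR.

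RpS28b, a protein of the small subunit, lies on X at positions 9554623 to 9555661, plus strand. It held 5590, 2732 and 2935 counts in the control pools and 414, 1310 and 1 in the knockdown pools, with each Stromalin KD pool below each control pool. The log2 fold change was -3.04 ± 1.90 (SE), and the adjusted p was 1.00 in edgeR and 0.0579 in the limma fit on log2(TPM + 1).

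Of the 79 tested genes, 8 had groups that did not overlap in normalized CPM, or 10.1%, against 6.62% of all tested genes. They were RpLP0, RpS27A, RpL40, RpS28b, RpL36A, RpL8 and RpL26, all lower in Stromalin KD, and RpL37a, which was higher. The share of all tested genes that parted in the lower direction was not counted, so that no excess in that direction can be read from these 8. RpL36A held 490, 661 and 963 counts in the control pools and 164, 10 and 179 in the knockdown pools (log2 fold change -2.65 ± 4.11, SE). RpL8, which lies beside the peptidyl transferase center, held 2012, 70 and 34 against 31, 20 and 0, so that its groups parted by few counts. RpL26 had low counts throughout, 15, 90 and 6 against 0, 0 and 3. RpL37a, on X at positions 15137870 to 15139367, minus strand, held 248, 349 and 334 counts in the control pools and 1713, 4272 and 1656 in the knockdown pools. It was found in all 6 libraries, at 37.9 ± 5.58 normalized CPM in the control pools and 272 ± 126 in the knockdown pools (SD, n = 3 each), with a log2 fold change of 2.85 ± 2.62 (SE) and an adjusted p of 1.00 in edgeR. Each of the 8 had an exact permutation p of 0.1, which any 3 against 3 without overlap gives, so that it only restates how they were picked. Among values without ties, 0.1 is also the probability that 3 against 3 part in this way without any difference. A gene at 0 in a library of each genotype, such as RpS10b, cannot part, so that 0.1 is no baseline for the 10.1% seen.

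**Figure D4:**
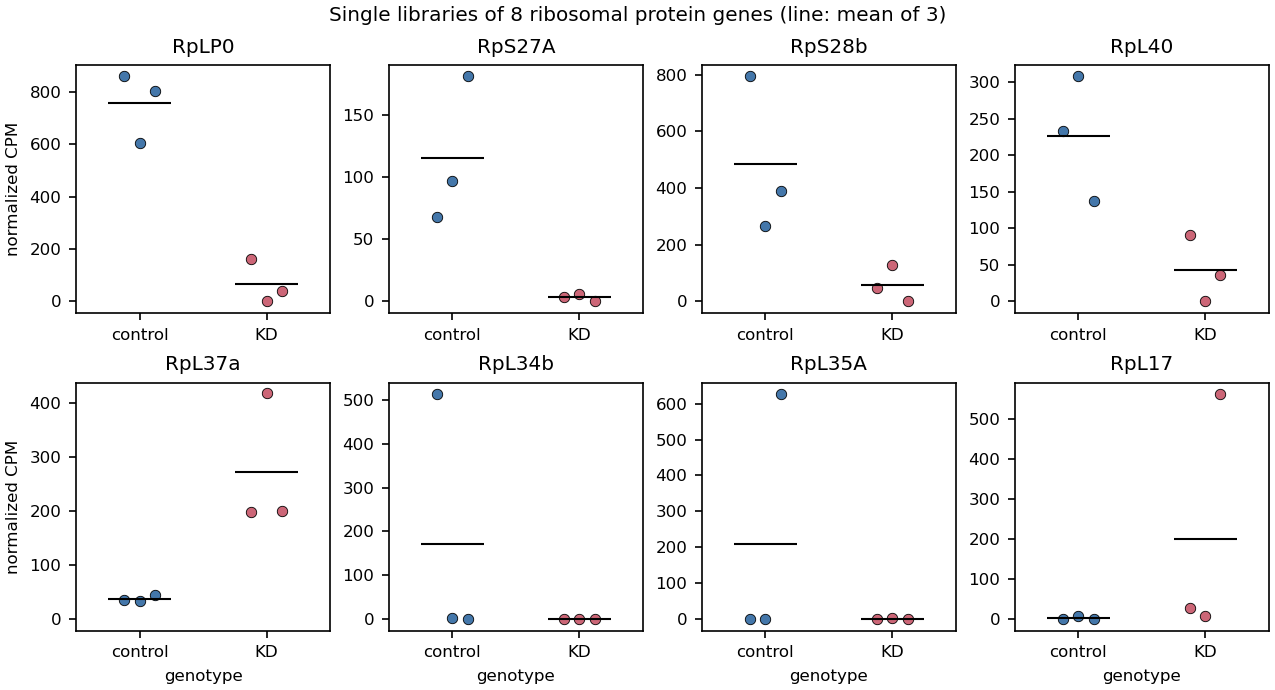
Normalized CPM in single libraries of 8 ribosomal protein genes, with control in blue, Stromalin KD (KD) in red and the mean of 3 as a line. In RpLP0, RpS27A, RpS28b and RpL40 every control point lies above every Stromalin KD point, RpL37a shows the opposite order, and the means of RpL34b, RpL35A and RpL17 are set by 1 library each.

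Several of the largest fitted changes came from single libraries. RpL34b, on 3R at positions 9400237 to 9401226, minus strand, held 3614, 14 and 0 counts in the control pools and 4, 0 and 0 in the knockdown pools, so that control 1 held 99.5% of its counts. Its log2 fold change was -9.996 ± 4.76 (SE), with an unadjusted p of 0.0356 and an adjusted p of 0.809 in edgeR, and an exact permutation p of 0.4. Without control 1 it had too few counts to be tested.

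RpL35A held 1, 5 and 4727 counts in the control pools and 4, 26 and 1 in the knockdown pools, with 99.2% of its counts in control 3. RpL17, which lines the exit tunnel for the new protein chain, held 0, 75 and 0 counts in the control pools and 239, 66 and 4637 in the knockdown pools. Its log2 fold change was 6.33 ± 3.82 (SE), the highest of the 79 genes, and 2.79 without Stromalin KD 3. RpL11, the partner of RpL5, held 1423, 74 and 0 counts in the control pools and 6, 1 and 0 in the knockdown pools (-7.97 ± 5.66, SE). In RpL28 the order was mixed, with 87, 11 and 574 counts in the control pools and 8, 1587 and 5856 in the knockdown pools.

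In the small subunit, RpS14a held 3658, 1 and 2534 counts in the control pools and 78, 921 and 1 in the knockdown pools, so that each genotype had a library at 1 count. RpS15Aa held 1089, 61 and 8204 counts in the control pools and 573, 858 and 0 in the knockdown pools, and its groups overlapped. RpS6, whose phosphorylation by S6 kinase is a common readout of TOR signaling, held 186, 461 and 63 counts in the control pools and 53, 477 and 569 in the knockdown pools. Its log2 fold change was 0.61 ± 4.22 (SE), and -0.01 without Stromalin KD 3.

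The 14 paralogs and like genes were nearly silent beside their main genes. RpL10Aa, RpL22-like, RpL37b, RpL7-like, RpLP0-like, RpS10a, RpS19b, RpS28-like, RpS28a and RpS5b had 0 counts in all 6 libraries. The other 4 had a count in 1 or 2 libraries each. RpL24-like, whose yeast relative is an assembly factor of the large subunit and not a part of the finished ribosome, held 13 counts in control 2 and 227 in Stromalin KD 2. RpL34a held 57 counts in control 2, RpS14b 25 in control 1, and RpS15Ab 29 in control 3 and 40 in Stromalin KD 1. Of these 6 values above 0, 4 were in control pools and 2 in knockdown pools.

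Each main gene was set against its paralog in log2(TPM + 1) within a library, over 14 pairs. RpL7, RpL10Ab, RpL37a and RpLP0 were higher than their paralogs in 6 of 6 libraries, each with 4 counts or more against 0. RpS14a was also above RpS14b in every library, and RpS28b above RpS28a and RpS28-like, but with 1 count against 0 in control 2 and Stromalin KD 3 for RpS14a and in Stromalin KD 3 for RpS28b, which is within the limit of 3 counts. The mean difference in these 7 pairs lay between 5.11 ± 3.99 for RpS14a and 8.09 ± 1.44 for RpL10Ab (SD, n = 6, on the log2(TPM + 1) scale). RpS5a and RpS15Aa were higher in 5 libraries and level with their paralogs at 0 TPM in 1, and RpS10b and RpS19a were higher in 4. The paralog was at 0 throughout in 10 of the 14 pairs, where a sign-flip test can only count the libraries with any count of the main gene, so that no p is given for them. In the 4 pairs whose paralog had a count, the smallest exact sign-flip permutation p was 0.03125, for RpS14a, the least that 6 libraries allow. RpS14b had a count in control 1 alone, so that this p too mainly counts libraries with any RpS14a. No pair passed at 0.05 after adjustment over the 14, but that adjustment takes in the 10 pairs given no p. It therefore decides nothing on these pairs.

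In the other 3 pairs the main gene was higher in 4 libraries (RpL24), 2 (RpL34b) and 1 (RpL22). RpL24 held 6.40, 61.6 and 0 TPM in the control pools and 221, 0.252 and 202 in the knockdown pools, and RpL24-like was higher in Stromalin KD 2 alone, at 93.7 TPM (exact p = 0.312). RpL34b was higher in control 1, at 1262 TPM, and in Stromalin KD 1, at 1.30 TPM, while RpL34a was higher in control 2, at 29.1 TPM against 4.78 (exact p = 0.75). Without control 1 the mean difference of this pair turned from 1.52 to -0.23. RpL22 and RpL22-like were at or near 0 throughout, with 1.15 TPM of RpL22 in control 2 as the only value above 0.

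**Figure D5:**
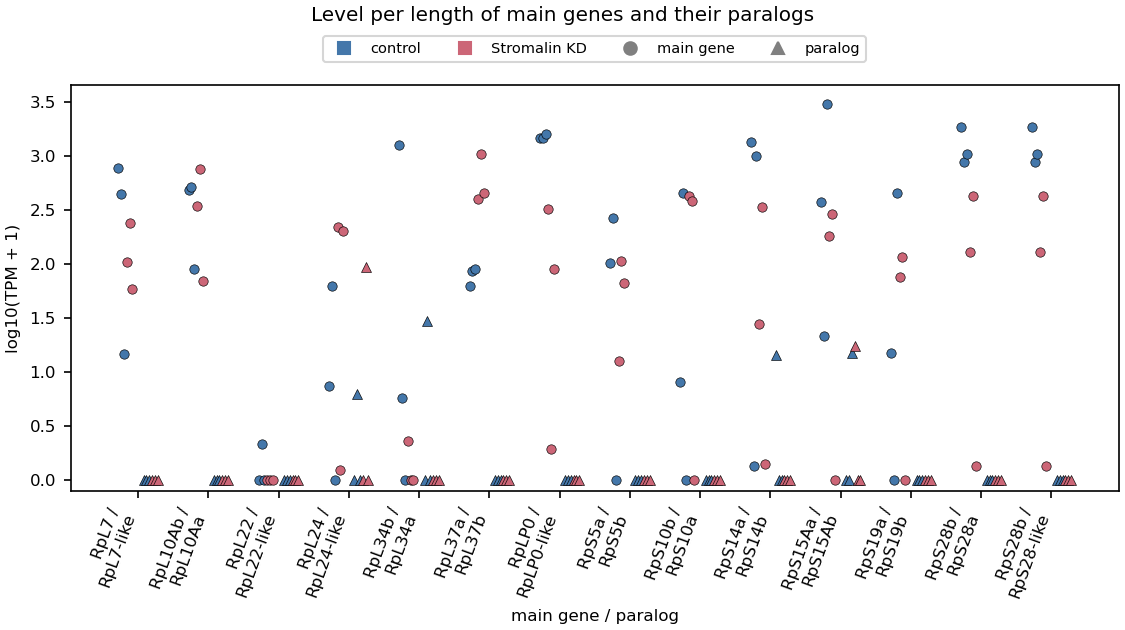
Level per length, as log10(TPM + 1), of the main gene (circles) and its paralog (triangles) in each pair, with control libraries in blue and Stromalin KD libraries in red. Most paralogs lie at 0 in all 6 libraries, while main genes range from 0 to above 3000 TPM, and only RpL24-like and RpL34a exceed their main gene, in 1 library each.

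Some of these values depend on how reads were shared out among genes. RpS14a and RpS14b, and RpS15Aa and RpS15Ab, are near-identical copies, so that the split of reads between them is uncertain. In the annotation used here RpL7-like shares 98.8% of its exon bases with CG34164 on the same strand, and its count of 0 says little if reads in both genes were dropped. RpL22 shares 34.3% of its exon bases with CR42491 on the same strand and RpS9 shares 50.3% with CR45874 on the opposite strand. In all, 31 of the 91 members in the annotation share exon bases with another gene, 6 of them over more than 20%.

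Other genes of the translation machinery were measured beside the ribosomal proteins. Rack1, which sits on the small subunit, held 12, 4273 and 261 counts in the control pools and 459, 1645 and 415 in the knockdown pools, and sta, the small subunit protein whose symbol falls outside the name pattern, held 102, 1082 and 0 against 104, 1 and 54. Of 28 tested initiation factors 0 passed the adjusted test in edgeR or in DESeq2, with 12 positive and 16 negative log2 fold changes and a median of -0.05. The cap-binding factor eIF4E1 was the only one with an unadjusted p under 0.05 in edgeR. DESeq2 put 5 of the initiation factors under that limit, where 14.1% of all genes with an adjusted p lay. The counts of eIF4E1 were 4333, 674 and 10152 in the control pools and 375, 842 and 376 in the knockdown pools, which overlapped. Its log2 fold change was -3.56 ± 1.63 (SE), with an adjusted p of 0.809 in edgeR. The initiation factors with the highest levels were pAbp, eIF3b and eIF4G1, at 2134, 771 and 609 normalized CPM.

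The most abundant elongation factors were found in every pool, at 2380 counts or more. The factor that brings aminoacyl-tRNA to the ribosome has 2 genes, of which eEF1alpha1 held 27185, 40558 and 49444 counts in the control pools and 26450, 34136 and 40168 in the knockdown pools. The other, eEF1alpha2, held 20141, 21519 and 16860 counts in the control pools and 14995, 21108 and 17376 in the knockdown pools. The translocase eEF2 held 2380, 10427 and 10772 against 10746, 3862 and 5028. Of 9 tested elongation and release factors 8 were negative and 1 positive, with a median of -0.66, and 0 had an unadjusted p under 0.05 in edgeR or in DESeq2.

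Of 26 ribosome biogenesis genes 1 was found in all 6 libraries, and 12 were tested, with a median log2 fold change of -1.71, 7 negative and 5 positive. At an unadjusted p under 0.05 there were 0 in edgeR and 2 in DESeq2. DESeq2 called 1 of the 12, pit, which encodes a nucleolar RNA helicase, at an adjusted p of 0.00397, beside 5.93% called of all genes. The counts of pit were 0, 0 and 0 in the control pools and 1028, 166 and 214 in the knockdown pools (unadjusted p 0.0583 and adjusted p 0.809 in edgeR). Non1, Aatf and Nop60B had the highest levels among the biogenesis genes, at 192, 61.8 and 58.2 normalized CPM. Of 8 tested regulators of ribosomal protein transcription and S6 phosphorylation, 4 were negative and 4 positive, with a median of -0.21. S6kII was the only one with an unadjusted p under 0.05 in edgeR (0 in DESeq2, which gave it no adjusted p), and its 0, 46 and 7261 counts in control against 0, 0 and 0 rested on control 3 (adjusted p 0.274 in edgeR). Xrp1, which is induced in cells short of a ribosomal protein, held 4880, 8977 and 19492 counts in the control pools and 6086, 5736 and 887 in the knockdown pools, and Myc, which drives ribosome production, held 741, 2615 and 6043 against 5874, 4041 and 6515. Trf2, next in level after Myc among the regulators, held 8306, 2705 and 1621 counts in the control pools and 4237, 2839 and 1 in the knockdown pools. The groups overlapped in each of these genes.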

How the data were processed

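RNA-seq of 25 picked neurons per library, 3 control and 3 Stromalin KD, was analysed, with the genotype of each library taken from its label. The authors deposited raw counts per gene, and the submitters' notes on processing list HTSeq 0.9.1 and DESeq2 as tools and BDGP6 as the build. The aligner, the strand setting and any molecular identifiers were not given in the sources used here. Signal per gene, in another deposited table, is the authors' counts divided by their size factors and was used for 1 alternative. The deposited TPM values imply lengths within 0.1% of the union of annotated exons in 2167 of 2225 genes compared. The authors' own comparison (log2 fold change, statistic and p-values) was not used.

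Genes with 10 counts or more in at least 2 of 6 libraries were tested with edgeR 4.0.16 (quasi-likelihood, TMM factors, genotype only, two-sided) in R 4.3.3, with Benjamini-Hochberg adjustment over 4093 genes. Normalized CPM used the same factors. The SE of an edgeR log2 fold change was derived as its absolute value over the square root of the F statistic of the test. Alternatives were DESeq2 1.42.0, limma 3.58.1 on log2(TPM + 1) or log2(TPM + 0.1), other scalings and count filters, a replicate block and leaving out each library. Single genes and main genes against paralogs were also compared by exact permutation in scipy 1.17.1. The fitting code was tested on simulated counts. These did not model genes missing from single pools, so that the check says little on such genes. Same-numbered libraries were not collected on the same day, and the deviations of these libraries from their group means correlated at -0.02, -0.01 and 0.02. Positions come from the BDGP6 annotation, Ensembl release 115, in which RpS12 was not matched.

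Named were all pair members, the 12 genes with the smallest edgeR p, the 10 with the highest mean TPM, the 5 most and 5 least variable of those found in all 6 libraries, the stalk genes, the ubiquitin fusions and RpS6. Of the lists of other translation genes and their regulators, those with an unadjusted p under 0.05 in edgeR and the 3 with the highest level were named. Single genes of the cell marker lists were not chosen by this rule. RpL36A, RpS3A, RpS13, pit and the RpS9 overlap were named after their values were seen. A pair of genes that these rules name is not reported here. The members and lists were chosen with earlier results of these data known. Each library is a separate pool, so the p-values measure the spread between pools.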

Additional observations from a re-analysis of the deposited data

How the results depend on the processing

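The count of genes called in the whole table, 2 of 4093 in edgeR, depended on the processing. It was 178 with DESeq2, 3 with RLE factors, 4 with log2(TPM + 1) and 4 with log2(TPM + 0.1) in limma, 1 with a gene kept at 1 count in any library, and 0 with TMMwsp factors, with total counts only, without rRNA genes, with 10 counts in 3 libraries and with 10 counts in all 6 libraries. Leaving out single libraries gave 0 to 3. With the replicate block the count was 1, and the log2 fold change of RpL35A was 0.25 and that of RpLP2 was 0.0235, each reversed from a negative value; the numbers do not pair the libraries.

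No ribosomal protein gene was called by edgeR or DESeq2 under any of these settings, and 1, RpLP0, was called with log2(TPM + 1) and with log2(TPM + 0.1). These TPM fits moved the median over all tested genes from 0.07 to 0.20 and 0.24, and that over the ribosomal protein genes from -0.23 to -0.27 and -0.20. The log2 fold change of RpS6 ran from -0.0125 to 1.20 when single libraries were left out, and RpL34b minus RpL34a from -0.23 to 2.30. The log2 ratio of large over small subunit genes, 0.31 from summed TPM, was 1.74 from median TPM of main genes, with overlapping groups. The ribosomal protein share kept its direction under all 10 alternatives tried, at log2 ratios of -0.57 to -0.22. None of these left out a ribosomal protein gene, and without RpLP0 and RpS28b the shares of the groups overlap. The share from the authors' size factors and the levels per canonical transcript length were added after seeing the data. The causes of these shifts were not tested.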
